A study of Mus musculus with 2 samples.

Results

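The Slc25a genes encode the mitochondrial carrier family, and they were described here in cells of the embryonic mouse brain with and without endothelial loss of Foxq1. Members were all gene symbols made of Slc25a and a number, which gave 47 of the 31253 genes in the files. Cells were sorted with CD31 microbeads from brains at stage E12.5, and each of the 2 genotypes, Foxq1iECKO and Foxq1flox/flox, gave 1 library. The number of embryos behind a library and the part of Foxq1 that was deleted were not given in the sources used here. How, in which cells and when the allele was recombined were not given either. The Foxq1flox/flox brains carried the floxed allele, and whether the Foxq1iECKO brains differed from them in other alleles or agents was likewise not given. Per the series title, the question is what endothelial FOXQ1, a forkhead transcription factor, does for brain vessel growth and for the barrier between blood and brain.

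Mitochondrial carriers sit in the inner mitochondrial membrane and move nucleotides, phosphate, carboxylic acids, amino acids, cofactors and metals between the cytosol and the matrix. They share a fold of repeated helix pairs, and most exchange one substrate for another. Slc25a33 and Slc25a36 are its pyrimidine nucleotide carriers: the human proteins bring such nucleotides into the matrix, where they feed the making of mitochondrial DNA and RNA. Adult brain endothelial cells that form the barrier are rich in mitochondria.

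With 1 library per genotype there was no test between genotypes, and no difference below has a replicate check. The Foxq1iECKO library held 72445925 unique molecular identifiers (UMIs, each standing for 1 captured transcript) over 15108 barcodes, and the Foxq1flox/flox library 76580165 over 15837. After filters, 12592 Foxq1iECKO and 13399 Foxq1flox/flox cells were used, and 9 classes had at least 200 cells in each library. Levels are CPM, a gene's UMIs summed over the cells of a class and scaled to the UMIs of that class, and log2 ratios are Foxq1iECKO over Foxq1flox/flox. Brackets hold 95% intervals that cover counting error only. A gene was measured in a class when its mean over both libraries was at least 10 CPM, and it was higher or lower by size when the ratio was at least 1.5 in that direction with an interval that excluded 1. The 270 barcodes that the libraries share are as many as random draws of barcodes would give (270.4), and profiles with the same barcode had a median r of 0.349, against 0.357 for other pairs. The sort did not leave endothelial cells alone: the endothelial-like class, with all 12 of its marker genes at 10 or more CPM in both libraries, held 1605 Foxq1iECKO cells (12.7% of the cells used) and 2283 Foxq1flox/flox cells (17.04%). Foxq1 itself was at 148 CPM in Foxq1iECKO endothelial-like cells and at 439 CPM in Foxq1flox/flox ones, a log2 ratio of -1.57 [-1.65, -1.48].

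Slc25a33 (ENSMUSG00000028982) lies on the minus strand of chromosome 4, at chr4:149744036-149774277 in mm10. The GENCODE vM21 annotation gives it 1 transcript of 7 exons, with 960 coding bases. An antisense gene, Gm13068, overlaps it at chr4:149748518-149749607, and whether counting used strand was not stated. Gm13068 had 0 UMIs in both libraries. RefSeq places the Slc25a33 start 10 bases inside the GENCODE gene, and the Slc25a36 start 116 bases inside it, so the bases shown are those of RefSeq's 250-base windows that lie before both starts. They are shown so that the forkhead core can be looked for beside the Foxq1 genotype, on GRCm38.p6, each written 5′ to 3′ on the gene's own minus strand. Capitals mark matches on either strand to the forkhead core TGTTTA, the TCF/LEF core CTTTGA or the E-box CACGTG, which were picked after the sequences were seen.
Slc25a33, chr4:149774278-149774517: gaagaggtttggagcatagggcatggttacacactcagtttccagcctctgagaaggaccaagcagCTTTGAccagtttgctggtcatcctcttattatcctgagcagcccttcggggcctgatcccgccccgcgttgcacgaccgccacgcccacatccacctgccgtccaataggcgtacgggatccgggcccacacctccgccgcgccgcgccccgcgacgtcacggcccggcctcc
Slc25a36, chr9:97111158-97111291: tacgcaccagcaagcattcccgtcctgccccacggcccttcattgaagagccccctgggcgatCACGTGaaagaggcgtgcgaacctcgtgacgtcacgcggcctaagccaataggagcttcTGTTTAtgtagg
The Slc25a33 sequence holds the TCF/LEF core with its first base 174 bases before the GENCODE start, which is 184 bases before the RefSeq start. The rest of its window holds an E-box 8 bases before the RefSeq start, inside the first exon of the GENCODE gene. The Slc25a36 sequence holds the forkhead core 12 bases and the E-box 71 bases before the GENCODE start, which is 128 and 187 bases before the RefSeq start. Of RefSeq's 32851 whole windows, 12.03% hold the forkhead core, 13.8% the TCF/LEF core and 6.02% the E-box. Among 46 windows of 36 Slc25a genes, 6 hold the forkhead core, 5 the TCF/LEF core and 8 the E-box. A match is a description of letters only, and its absence says nothing of binding.

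In endothelial-like cells 22 of the 47 members were measured, and 1 of them, Slc25a33, was lower by size in the Foxq1iECKO library, while none was higher. Of the 7834 genes measured there, 0.83% were lower and 0.83% were higher by size. Slc25a33 had 132 UMIs, 13.5 CPM [11.3, 15.96], in Foxq1iECKO cells, against 473 UMIs, 30.99 CPM [28.3, 33.9], in Foxq1flox/flox cells. Its log2 ratio was -1.20 [-1.49, -0.92], the third lowest of the 7834 genes. The call rests on which cells form the class: with a cluster of mixed endothelial and pericyte markers added, the ratio was inside the size limit and 57th lowest of 7939 genes. At a coarser clustering that left the barrier cells out of the class it was 0.27 [-0.25, 0.78]. The other 21 measured members lay between -0.50 and 0.17, and their SD across genes was 0.19. The median member had a log2 ratio of 0.01, against -0.02 for all measured genes. Slc25a33 thus lay outside the range of the other measured members, as the plot of ratios by member shows.

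**Figure D1:**
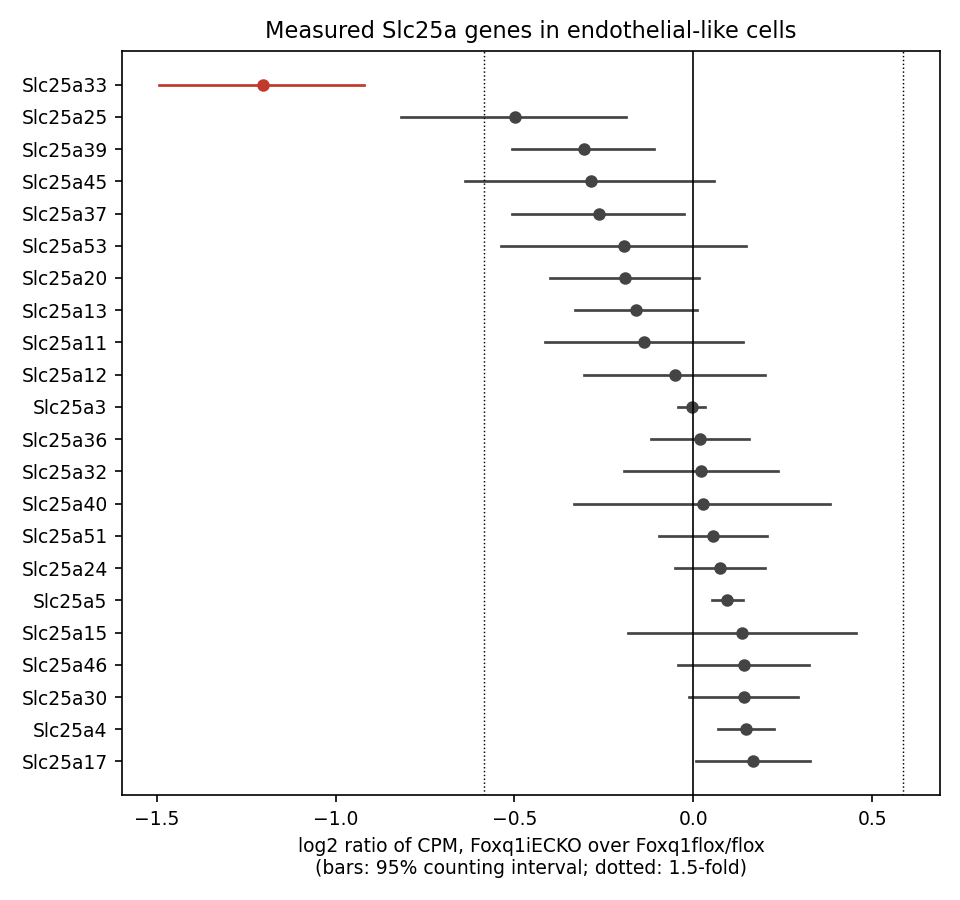
Log2 ratio of CPM, Foxq1iECKO over Foxq1flox/flox, for the 22 Slc25a genes measured in endothelial-like cells, with 95% counting intervals as bars and dotted lines at 1.5-fold. Slc25a33 (red) lies at -1.20 and the other 21 members between -0.50 and 0.17.

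Its closest relative did not share that difference. Slc25a36 was at 73.1 CPM in Foxq1iECKO endothelial-like cells and at 72.1 CPM in Foxq1flox/flox ones, with a log2 ratio of 0.02 [-0.12, 0.16]. The adenine nucleotide carriers move ATP and ADP. Slc25a5, a translocase that exchanges them, had 737 CPM in Foxq1iECKO cells and 690 CPM in Foxq1flox/flox cells (log2 ratio 0.10), and Slc25a4, the related translocase of heart and muscle, had 230 and 208 CPM in the same order (0.15). Slc25a24, a calcium-regulated ATP-magnesium and phosphate carrier, had 87.5 CPM in Foxq1iECKO cells and 83.1 CPM in Foxq1flox/flox cells (0.07). Slc25a25, another carrier of that calcium-regulated type, had the second lowest ratio of the family: 12.7 CPM (125 UMIs) in Foxq1iECKO cells, against 18.02 CPM (275 UMIs) in Foxq1flox/flox cells, with a log2 ratio of -0.50 [-0.82, -0.19], inside the size limit. None of the 4 measured adenine nucleotide carriers was higher or lower by size.

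Slc25a3, which imports the phosphate used to make ATP, was the member with most UMIs in endothelial-like cells, with 923 CPM in the Foxq1iECKO library and 926 CPM in the Foxq1flox/flox library (log2 ratio 0.00 [-0.04, 0.03]). Among cofactor carriers, Slc25a51, which brings NAD into mitochondria, had 60.5 CPM in Foxq1iECKO cells and 58.2 CPM in Foxq1flox/flox cells. Slc25a17, a peroxisomal carrier of cofactors, had the highest ratio of the measured members at 0.17 [0.01, 0.33], from 56.6 CPM in Foxq1iECKO cells and 50.4 CPM in Foxq1flox/flox cells. Slc25a30, an inner membrane carrier grouped here with those of phosphate and carboxylates, had 61.6 CPM in Foxq1iECKO cells and 55.8 CPM in Foxq1flox/flox cells (0.14). Of the iron and glutathione group, Slc25a37, the mitochondrial iron importer mitoferrin, had 22.5 CPM in Foxq1iECKO cells and 27.1 CPM in Foxq1flox/flox cells (-0.26 [-0.51, -0.02]). Slc25a39, a glutathione importer, had 32.6 CPM in Foxq1iECKO cells and 40.4 CPM in Foxq1flox/flox cells (-0.31 [-0.51, -0.11]). Both were inside the size limit. The 4 measured amino acid carriers, among them the aspartate-glutamate carriers Slc25a12 and Slc25a13, lay between -0.29 and 0.14. The summed level of all members was 2608 CPM in Foxq1iECKO and 2570 CPM in Foxq1flox/flox endothelial-like cells.

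The endothelial-like class was made of clusters that held very different levels of Slc25a33. In the cluster with the highest Slco1c1 relative to Plvap, called barrier here, Slc25a33 was at 29.1 CPM in the Foxq1iECKO library (83 UMIs, 619 cells), against 61.4 CPM in the Foxq1flox/flox library (423 UMIs, 1088 cells), a log2 ratio of -1.08 [-1.43, -0.74]. In the non-barrier cluster it was at 7.04 CPM in Foxq1iECKO cells (49 UMIs, 986 cells) and at 5.97 CPM in Foxq1flox/flox cells (50 UMIs, 1195 cells), with a log2 ratio of 0.24 [-0.36, 0.84]. Barrier over non-barrier, the level was 4.13-fold higher within the Foxq1iECKO library and 10.3-fold higher within the Foxq1flox/flox library, and the intervals of these log2 ratios, [1.52, 2.59] and [2.94, 3.82] in the same order, do not meet. This difference between libraries was not tested. The clusters were formed from all variable genes, Slc25a33 among them. With the Slc25a genes left out of the clustering the folds were 4.25 in Foxq1iECKO and 9.99 in Foxq1flox/flox.

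Slc25a20 was the other member higher by size in the barrier cluster of both libraries; 23 members were measured there, none was lower in both, and of all 7865 genes measured 8.43% were higher and 4.46% lower. Slc25a20, the carnitine-acylcarnitine carrier that brings fatty acids into the matrix for oxidation, had 43.1 CPM in barrier and 25.3 CPM in non-barrier cells of the Foxq1iECKO library, and 46.9 and 24.8 CPM in the same order in the Foxq1flox/flox library. Its barrier over non-barrier log2 ratio was 0.77 in Foxq1iECKO and 0.92 in Foxq1flox/flox. Slc25a24 had the lowest such ratio in both libraries, at -0.50 in Foxq1iECKO and -0.70 in Foxq1flox/flox. Slc25a36 ran opposite to Slc25a33, with 57.2 CPM in barrier and 79.6 CPM in non-barrier cells of the Foxq1iECKO library (-0.48), and 57.8 and 83.9 CPM in the same order in the Foxq1flox/flox library (-0.54). The median member had a log2 ratio of 0.04 in Foxq1iECKO and 0.05 in Foxq1flox/flox. Median depth also differed between the clusters, with 2998 UMIs per barrier and 4774 per non-barrier cell in the Foxq1iECKO library and 3958 and 4376 in the Foxq1flox/flox library, and its part in these values was not tested.

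**Figure D2:**
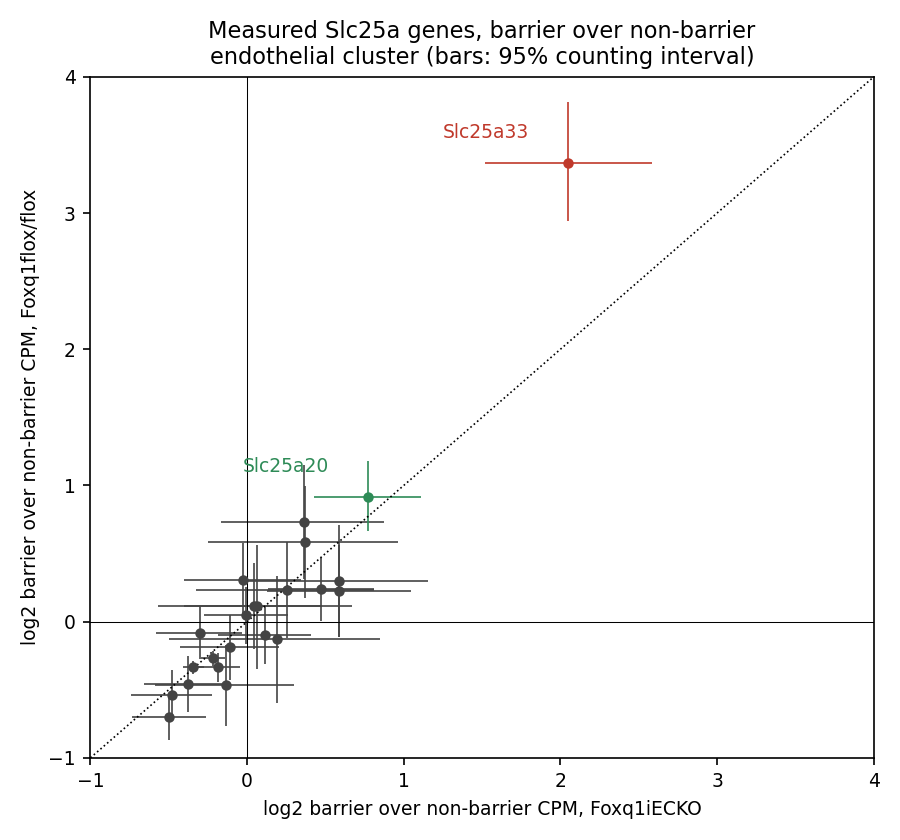
Log2 ratio of CPM between the barrier and the non-barrier endothelial cluster for the 23 measured Slc25a genes, within the Foxq1iECKO library (horizontal axis) and within the Foxq1flox/flox library (vertical axis), with 95% counting intervals. Slc25a33 (red) lies far right and top, and above the dotted line of equal ratios; Slc25a20 (green) is the other member above 1.5-fold in both.

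At a finer level, 10 endothelial subclusters were formed, and Slc25a33 was itself among the leading genes of subcluster 2, named barrier. There it was at 44.8 CPM in the Foxq1iECKO library (49 UMIs, 158 cells), against 90.0 CPM in the Foxq1flox/flox library (295 UMIs, 387 cells), with a log2 ratio of -1.01 [-1.47, -0.57]. Median depth in subcluster 2 was 5091 UMIs per Foxq1iECKO cell and 6928 per Foxq1flox/flox cell. The pericyte marker Rgs5 was another of its leading genes. Its pericyte list summed to 459 CPM in Foxq1iECKO and 337 CPM in Foxq1flox/flox, against 260 and 219 CPM in the whole class. The part of depth and of pericyte RNA in these values was not tested. Subcluster 3, named cycling, had 6.01 CPM in the Foxq1iECKO library (5 UMIs, 161 cells), against 37.0 CPM in the Foxq1flox/flox library (77 UMIs, 297 cells), a log2 ratio of -2.62 [-4.29, -1.34]. Subcluster 8, named arterial, had 37.99 CPM (13 UMIs) in Foxq1iECKO cells and 50.02 CPM (47 UMIs) in Foxq1flox/flox cells, with intervals that overlap. The other 6 subclusters with more than 100 cells were at 3.01 to 17.6 CPM in the Foxq1iECKO library and at 4.04 to 8.27 CPM in the Foxq1flox/flox library, and subcluster 9 held 24 cells with 2 Foxq1iECKO UMIs and none in Foxq1flox/flox. Among these was subcluster 5, also named barrier, at 17.6 CPM (8 UMIs) in Foxq1iECKO and 6.38 CPM (4 UMIs) in Foxq1flox/flox. Its median depth was 2236 UMIs in Foxq1iECKO and 2349 UMIs in Foxq1flox/flox cells. Subcluster 7, also named cycling, was another of the 6, at 4.85 CPM (2 UMIs) in Foxq1iECKO and 4.04 CPM (2 UMIs) in Foxq1flox/flox. In the Foxq1flox/flox library subclusters 2, 3 and 8 stood above the others, and in subclusters 2 and 3 Slc25a33 was lower by size in the Foxq1iECKO library. In subcluster 3 Slc25a33 passed the measured limit only through its Foxq1flox/flox level, so that call says nothing further.

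**Figure D3:**
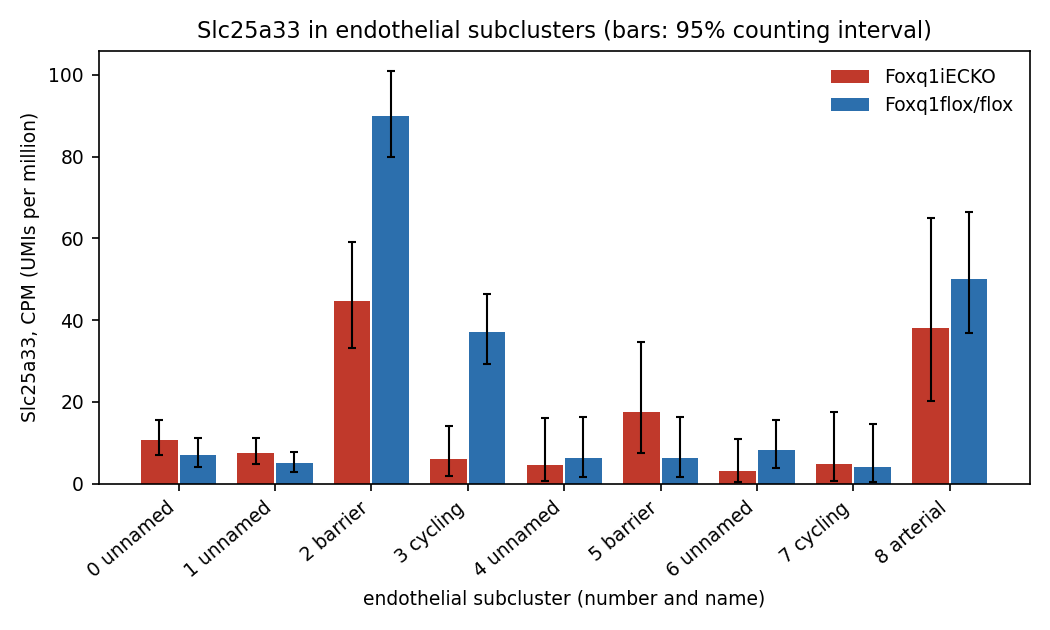
Slc25a33 in CPM in 9 endothelial subclusters, Foxq1iECKO (red, left) and Foxq1flox/flox (blue, right) side by side, with 95% counting intervals; subcluster 9, of 24 cells, is not drawn. Subcluster 2 stands at 44.8 CPM in Foxq1iECKO and 90.0 CPM in Foxq1flox/flox, and subcluster 3 at 6.01 and 37.0 CPM in the same order.

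The share of such cells differed between the libraries as well. Subcluster 2 held 9.84% of Foxq1iECKO and 16.95% of Foxq1flox/flox endothelial-like cells, and gave 37.1% of the Slc25a33 UMIs of the class in Foxq1iECKO and 62.4% in Foxq1flox/flox. Outside it, Slc25a33 was at 9.53 CPM in Foxq1iECKO cells and at 14.9 CPM in Foxq1flox/flox cells, a log2 ratio of -0.64 [-1.03, -0.26]. Under equal subcluster weights for the libraries, the log2 ratio of the class was -0.66 [-0.96, -0.35], an interval from a normal approximation, with levels of 14.8 CPM in Foxq1iECKO and 23.3 CPM in Foxq1flox/flox. The summed level of the barrier marker list in endothelial-like cells was 2483 CPM in Foxq1iECKO and 3453 CPM in Foxq1flox/flox, and in subcluster 2 it was 6482 and 6861 CPM in the same order. With the Slc25a genes left out of the clustering, the matching barrier subcluster had 53.2 CPM in 182 Foxq1iECKO cells and 93.4 CPM in 439 Foxq1flox/flox cells, a log2 ratio of -0.81 [-1.22, -0.42]. In that clustering a cycling subcluster had 11.8 CPM in Foxq1iECKO and 35.3 CPM in Foxq1flox/flox (-1.59 [-2.55, -0.74]). The other cycling subcluster had 3.46 and 3.54 CPM in the same order (-0.04 [-2.81, 2.53]). A further barrier subcluster had 18.4 CPM in Foxq1iECKO and 6.81 CPM in Foxq1flox/flox (1.43 [-0.25, 3.33]). The arterial one had 11.9 and 10.1 CPM in the same order, so the arterial level was lower in this clustering than in the first one.

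A cluster with both endothelial and pericyte markers gave a smaller difference. It held 827 Foxq1iECKO cells (6.57% of all used) and 479 Foxq1flox/flox cells (3.57%), with a median of 8782 and 9574 UMIs per cell in the same order, against 3898 and 4187 in endothelial-like cells. It is called mixed, and whether its barcodes hold more than 1 cell was not tested beyond the removal of predicted doublets. Its pericyte list summed to 6034 CPM in Foxq1iECKO and 5322 CPM in Foxq1flox/flox, against 260 and 219 CPM in endothelial-like cells. Its barrier marker list summed to 5169 CPM in Foxq1iECKO and 5454 CPM in Foxq1flox/flox. Barrier markers were therefore not confined to the endothelial-like class, and this cluster was the larger share of the Foxq1iECKO library. Slc25a33 was at 45.3 CPM [40.7, 50.4] in the Foxq1iECKO mixed cells and at 61.0 CPM [54.1, 68.5] in the Foxq1flox/flox ones, with a log2 ratio of -0.43 [-0.66, -0.20], inside the size limit. With these cells added to the endothelial-like class the ratio was -0.47 [-0.64, -0.31], from 27.4 CPM in Foxq1iECKO and 38.04 CPM in Foxq1flox/flox, and no member was higher or lower by size, against 1.57% and 0.227% of 7939 genes. A small cluster with endothelial and erythroid markers had 18.98 CPM of Slc25a33 in 110 Foxq1iECKO cells and 37.7 CPM in 182 Foxq1flox/flox cells (-0.99 [-1.75, -0.28]). Slc25a33 was lower by size there, in a cluster too small to be among the 9 classes.

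Counted as cells with at least 1 Slc25a33 UMI after each cell was thinned to 2000 UMIs, the share in endothelial-like cells was 2.10% [1.39, 3.04] in Foxq1iECKO and 4.83% [3.91, 5.88] in Foxq1flox/flox, with 320 and 357 shallower cells left out. Before thinning it was 7.04% and 11.7% in the same order. No cell type here is known to lack the gene. The lowest thinned shares among classes were those of fibroblast-like cells, 1.76% in Foxq1iECKO and 2.19% in Foxq1flox/flox at median depths of 3794 and 4106 UMIs, and of radial glia-like cells, 2.09% and 2.16% in the same order. These shares are not a background without the gene. The Foxq1iECKO endothelial share was near them, so it is not read as expression above theirs. In subcluster 2 the thinned share was 5.97% [2.61, 11.4] in Foxq1iECKO and 14.2% [10.8, 18.3] in Foxq1flox/flox. Within subcluster 2 of the Foxq1flox/flox library, thinned cells with a Foxq1 UMI were at 106 CPM of Slc25a33 (60 UMIs in 282 cells) and those without at 59.2 CPM (9 UMIs in 76 cells), with overlapping intervals. In the Foxq1iECKO library the cells with a Foxq1 UMI were at 28.3 CPM and those without at 30.9 CPM, from 3 and 5 UMIs, too few to compare. Such gaps were not particular to subcluster 2. With and without a Foxq1 UMI, pericyte-like cells were at 47.2 and 36.2 CPM in Foxq1iECKO and at 51.7 and 7.94 CPM in Foxq1flox/flox. Mixed cells were at 47.1 and 25.5 CPM in Foxq1iECKO and at 66.0 and 57.5 CPM in Foxq1flox/flox. All these pairs had overlapping intervals, and subcluster 5 had too few UMIs to compare. The deleted part of Foxq1 was not given, so a Foxq1 UMI does not show whether a cell kept the intact gene.

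Outside the endothelial-like class Slc25a33 was not higher or lower by size in any of the other 8 classes. In fibroblast-like cells it was below the measured limit on average, so no call was possible there. Lymphatic endothelial-like cells had 44.8 CPM in the Foxq1iECKO library and 44.6 CPM in the Foxq1flox/flox library (log2 ratio 0.01 [-0.36, 0.37]). Pericyte-like cells had 32 CPM in Foxq1iECKO and 31.1 CPM in Foxq1flox/flox (0.04 [-0.64, 0.72]). Their Foxq1 was at 539 and 621 CPM in the same order, a level above that of endothelial-like cells. Its log2 ratio there was -0.20 [-0.35, -0.05], inside the size limit. Macrophage-like cells had 24.4 CPM in Foxq1iECKO and 27.5 CPM in Foxq1flox/flox (-0.17). Neuron-like cells had 17.5 CPM in Foxq1iECKO and 21.98 CPM in Foxq1flox/flox (-0.33), and cartilage-like cells had 21.7 and 17.6 CPM in the same order (0.30). Radial glia-like cells, at 10.6 CPM in Foxq1iECKO and 13.7 CPM in Foxq1flox/flox (-0.38), and fibroblast-like cells, at 9.37 and 10.4 CPM in the same order (-0.15), were lowest. The mixed cells were highest in both libraries. Their Foxq1 was at 578 CPM in Foxq1iECKO and 1067 CPM in Foxq1flox/flox (log2 ratio -0.88). Endothelial-like cells came at rank 7 in Foxq1iECKO and rank 4 in Foxq1flox/flox. In each library the intervals of neighbours in this order overlapped, except between the mixed and the lymphatic cells in Foxq1flox/flox.

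**Figure D4:**
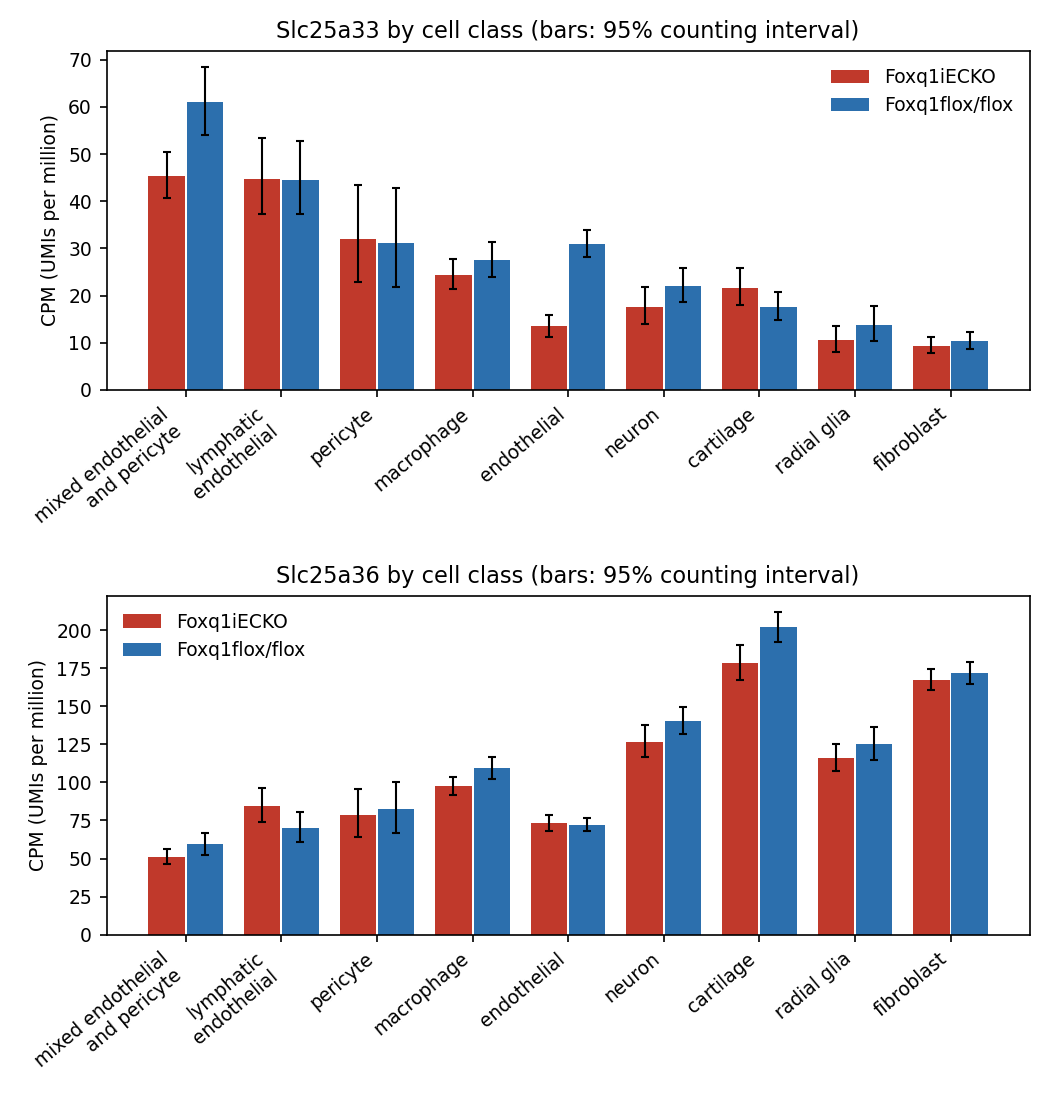
Slc25a33 (top) and Slc25a36 (bottom) in CPM in 9 cell classes, Foxq1iECKO (red, left) and Foxq1flox/flox (blue, right), with 95% counting intervals. The Slc25a33 pair with the widest gap is endothelial, at 13.5 CPM in Foxq1iECKO and 30.99 CPM in Foxq1flox/flox, while the Slc25a36 pair there is level at 73.1 and 72.1 CPM.

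Slc25a36 had another order of classes. It was highest in cartilage-like cells, at 178 CPM in Foxq1iECKO and 202 CPM in Foxq1flox/flox (log2 ratio -0.18 [-0.29, -0.06]), and then in fibroblast-like cells, at 167 and 172 CPM in the same order (-0.04). Neuron-like cells had 127 CPM in Foxq1iECKO and 141 CPM in Foxq1flox/flox (-0.15), and radial glia-like cells had 116 and 125 CPM in the same order (-0.11). Macrophage-like cells had 97.4 CPM in Foxq1iECKO and 109 CPM in Foxq1flox/flox (-0.16), lymphatic endothelial-like cells 84.5 and 70.3 CPM (0.27), and pericyte-like cells 78.8 and 82.4 CPM (-0.06), each in the same order. It was lowest in the mixed cells, where Slc25a33 was highest, with 51.1 CPM in Foxq1iECKO and 59.3 CPM in Foxq1flox/flox (-0.21). None of its 9 ratios was beyond the size limit. The fibroblast-like and endothelial-like levels stood apart from those of the class next below them in Foxq1iECKO, as did the radial glia-like level. In Foxq1flox/flox the levels of cartilage-like, fibroblast-like and macrophage-like cells stood apart in this way. The other neighbours overlapped.

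Across the 9 classes 15 members were measured in every class, 15 in some, and 17 in none. Among the 17 unmeasured members were Slc25a1, Slc25a2, Slc25a10, Slc25a18, Slc25a21, Slc25a29, Slc25a31, Slc25a34, Slc25a35, Slc25a38, Slc25a41, Slc25a42, Slc25a43, Slc25a47, Slc25a48 and Slc25a54. Over all cells 25 members were measured, and 17 of these were highest in the same class in both libraries, 6 of them in neuron-like and 4 in macrophage-like cells. In 2 of them the highest class was at least 3-fold above the median of the other classes in both libraries. Slc25a27, an uncoupling protein-like carrier known from brain, was at 92.7 CPM in Foxq1iECKO and 94.7 CPM in Foxq1flox/flox neuron-like cells, against medians of 8.84 and 7.09 CPM over the other classes of the same library. Slc25a45, a carrier of the amino acid group, was at 40.03 CPM in Foxq1iECKO and 48.1 CPM in Foxq1flox/flox macrophage-like cells, against medians of 1.26 and 2.12 CPM. Slc25a33 was 2.05-fold above the median of the other classes in the Foxq1iECKO mixed cells and 2.22-fold in the Foxq1flox/flox mixed cells, with a pseudocount of 5 CPM.

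**Figure D5:**
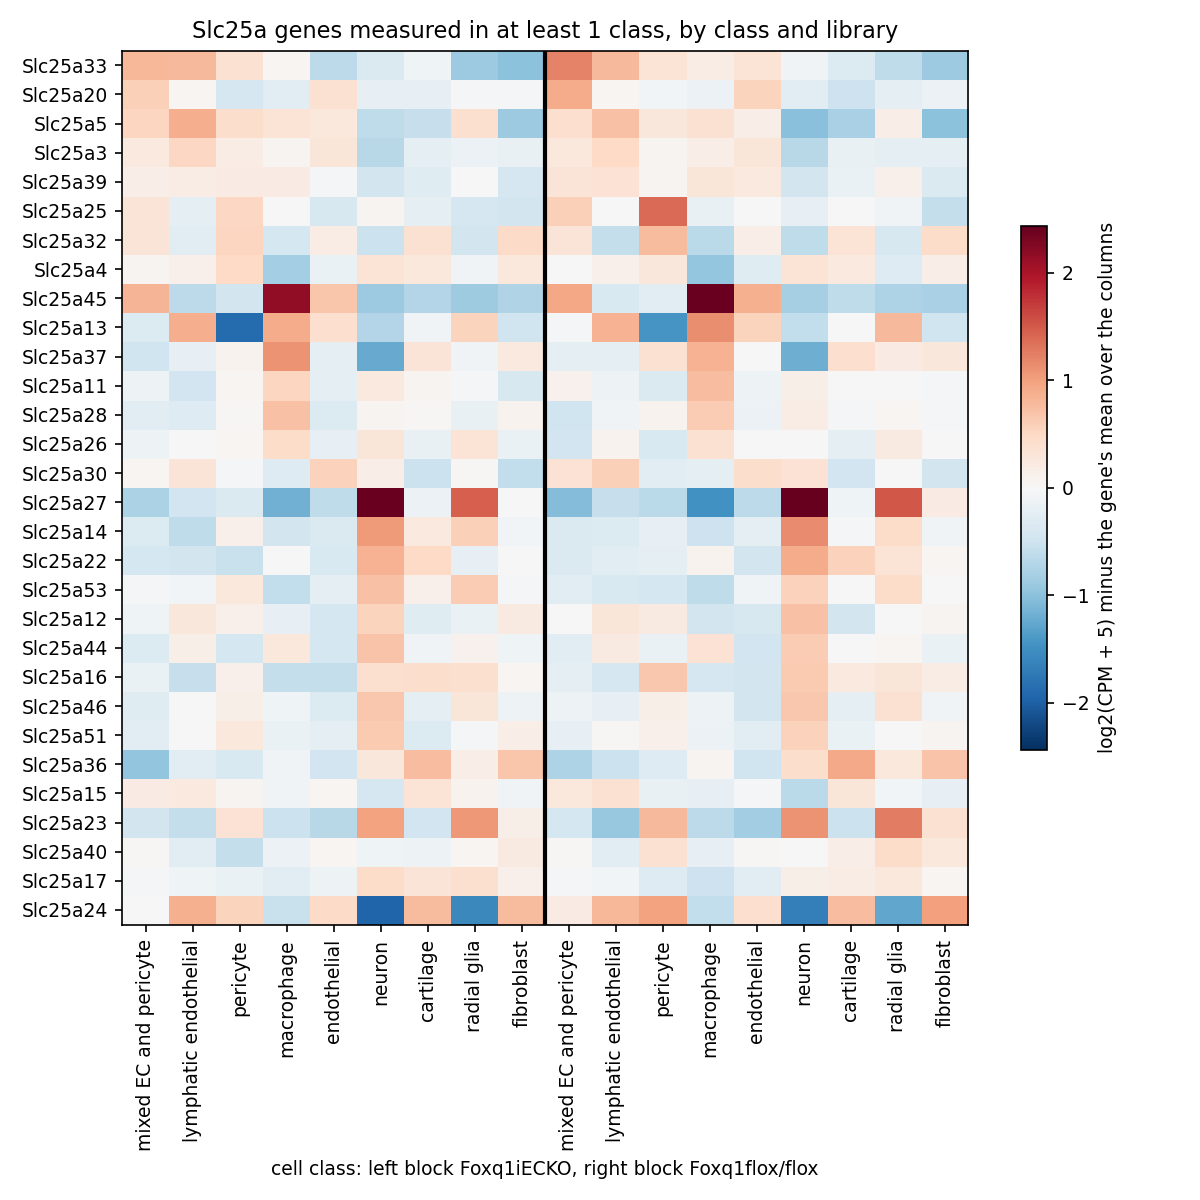
Levels of the 30 Slc25a genes measured in at least 1 class (rows) in 9 classes (columns), Foxq1iECKO in the left block and Foxq1flox/flox in the right one, as log2(CPM + 5) minus the gene's mean over all columns. Rows are ordered by their highest class; Slc25a27 stands out in neuron-like and Slc25a45 in macrophage-like cells of both libraries.

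Slc25a3, Slc25a4 and Slc25a5 were the 3 most abundant members in endothelial-like cells, by 3′ tags that count each transcript once and were not divided by length. They made up 72.5% of the family's UMIs in Foxq1iECKO and 71.0% in Foxq1flox/flox endothelial-like cells, and 55.4% and 53.1% in the same order in neuron-like cells, where the share was lowest. The family total was highest in lymphatic endothelial-like cells, at 3318 CPM in Foxq1iECKO and 3168 CPM in Foxq1flox/flox. It was lowest in the neuron-like cells of Foxq1flox/flox, at 2061 CPM, where Foxq1iECKO had 2148 CPM. Slc25a37 was at 63.3 CPM in Foxq1iECKO and 52.3 CPM in Foxq1flox/flox macrophage-like cells, and at 82.0 CPM in Foxq1iECKO and 122 CPM in Foxq1flox/flox cells of the cluster with endothelial and erythroid markers. Slc25a24 was lowest in neuron-like cells, at 12.2 CPM in Foxq1iECKO and 15.9 CPM in Foxq1flox/flox. Slc25a13 was lowest in pericyte-like cells, at 5.46 CPM in Foxq1iECKO and 9.25 CPM in Foxq1flox/flox.

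In the other classes members were seldom beyond the size limit. In pericyte-like cells 2 of 23 measured members were lower by size and none was higher, against 3.32% and 1.96% of the 8333 genes. Slc25a25 was at 28.1 CPM in Foxq1iECKO (36 UMIs), against 55.5 CPM in Foxq1flox/flox (66 UMIs), a log2 ratio of -0.98 [-1.61, -0.37]. Slc25a40, a relative of the glutathione importer Slc25a39, was at 5.46 CPM in Foxq1iECKO (7 UMIs), against 15.1 CPM in Foxq1flox/flox (18 UMIs), a log2 ratio of -1.47 [-2.97, -0.14]. It passed the measured limit only through its Foxq1flox/flox level, so its place in the count says nothing further. The class held 310 Foxq1iECKO and 277 Foxq1flox/flox cells, so few UMIs stand behind both values. No member was beyond the limit in cartilage-like cells (2.78% of all measured genes were, in either direction), fibroblast-like (1.89%), lymphatic endothelial-like (3.15%), macrophage-like (2.85%), mixed (1.95%), neuron-like (5.38%) or radial glia-like cells (3.3%). The median log2 ratio of the measured members ran from -0.15 in the mixed cells to 0.04 in pericyte-like cells.

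Slc25a5 had a small ratio above 0, with an interval above 0, in all classes but macrophage-like cells. The ratio was greatest in neuron-like cells, where it was at 397 CPM in Foxq1iECKO and 301 CPM in Foxq1flox/flox (log2 ratio 0.40 [0.31, 0.49]), and in macrophage-like cells it was at 774 and 797 CPM in the same order (-0.04 [-0.09, 0.00]). Slc25a5 is 1 of 4 members on the X chromosome, with Slc25a14, Slc25a43 and Slc25a53. Slc25a14, an uncoupling protein-like carrier, was at 9.28 CPM in Foxq1iECKO and 10.7 CPM in Foxq1flox/flox endothelial-like cells (-0.20 [-0.59, 0.18]), below the measured limit on average. The libraries also differed in genes that tell the sexes apart. Over all cells Xist, the RNA of the inactive X, was at 376 CPM in Foxq1iECKO and 588 CPM in Foxq1flox/flox, and the Y-linked gene Ddx3y was at 124 and 88.2 CPM in the same order. Their part in the Slc25a5 values was not tested.

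The genes with a pattern most like that of Slc25a33 were found over 26 clusters and endothelial subclusters in both libraries, as Pearson's r of log2(CPM + 5) over 52 points, among 9152 genes. These points share libraries and depth, though not cells, so r is a description. Among those with the highest r outside the family were Zfand2a (0.64), Atp6v1d (0.63), Klf11 (0.62), Mindy2 (0.62), Brd2 (0.61), Mgat4a (0.60) and Cpeb4 (0.60). None of these was beyond the size limit in endothelial-like cells. Zfand2a, a gene induced by heat and arsenite, had the lowest ratio of these there, with 19.2 CPM in Foxq1iECKO and 24.6 CPM in Foxq1flox/flox (log2 ratio -0.36 [-0.62, -0.10]). Within the family Slc25a25 came nearest (r 0.55), followed by Slc25a39 (0.49), while Slc25a36 was at -0.21 and Slc25a40 lowest at -0.31. Foxq1 had an r of 0.36, against a median r of -0.06 over all 9152 genes and 0.00 over the 24 other members compared.

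Other genes of mitochondrial transport and nucleotide handling were described as lists in endothelial-like cells. Among genes of mitochondrial nucleotide metabolism 10 of 16 were measured, 1 was higher and none lower by size, against 0.83% of all measured genes in each direction (median log2 ratio 0.04). The higher one was Cmpk2, a mitochondrial UMP-CMP kinase that interferon induces, at 41.3 CPM in Foxq1iECKO and 22.7 CPM in Foxq1flox/flox (0.87 [0.65, 1.08]). Rrm2b, a subunit of the enzyme that makes deoxynucleotides, was at 527 CPM in Foxq1iECKO and 526 CPM in Foxq1flox/flox. Of genes of mitochondrial DNA replication and transcription 7 of 16 were measured and none was beyond the limit (median -0.01). Tfam, which packs mitochondrial DNA, was at 74.5 CPM in Foxq1iECKO and 74.8 CPM in Foxq1flox/flox. Other inner membrane transport genes (11 of 16 measured, median -0.02) and carriers with other symbols such as Ucp2 (3 of 5 measured, median 0.06) had none beyond it.

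Some stress genes differed beside Slc25a33. Of 15 dissociation and immediate early genes, all measured, 3 were lower by size and none higher in endothelial-like cells, against the 0.83% of all measured genes in each direction, at a median log2 ratio of -0.05 and summed levels of 2191 CPM in Foxq1iECKO and 2286 CPM in Foxq1flox/flox. Hspa1a, an inducible heat shock protein, was at 31.2 CPM in Foxq1iECKO and 61.2 CPM in Foxq1flox/flox (-0.97 [-1.16, -0.78]). Hspa1b had 29.1 CPM in Foxq1iECKO and 45.5 CPM in Foxq1flox/flox (-0.65), and the nuclear receptor gene Nr4a1 had 94.4 and 152 CPM in the same order (-0.69). Fos was at 244 CPM in Foxq1iECKO and 229 CPM in Foxq1flox/flox (0.09). The class's own endothelial markers summed to 6585 CPM in Foxq1iECKO and 7344 CPM in Foxq1flox/flox. Of 16 marker lists of other cell types, 10 had a higher and 6 a lower sum in Foxq1iECKO than in Foxq1flox/flox endothelial-like cells. The macrophage list of 12 genes summed to 51.1 CPM in Foxq1iECKO and 34.4 CPM in Foxq1flox/flox, with 1 gene at 10 or more CPM in both, and the neuron list of 10 genes to 248 and 209 CPM in the same order, with 3. The cartilage list of 9 genes summed to 134 CPM in Foxq1iECKO and 162 CPM in Foxq1flox/flox, with 4 such genes, and the erythroid list of 11 genes to 27.3 and 34.2 CPM in the same order, with 1 such gene and Klf1 at 0. Their part in the Slc25a33 values was not tested.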

How the data were processed

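The authors deposited raw UMI counts for each gene in each barcode. Their tools, per the submitters' processing notes, were fastp 0.24.0 and STARsolo 2.7.11b, with mm10 as the build. The annotation, strand use and handling of reads that match several genes were not stated. Cells with at least 500 genes, 1000 UMIs and no more than 20% of them mitochondrial were kept, and doublets that Scrublet predicted (expected share 8%) were removed, 516 from the Foxq1iECKO and 534 from the Foxq1flox/flox library. Both libraries were clustered together without batch correction (scanpy 1.11.5, leidenalg 0.10.2, 2000 variable genes, 30 components, 20 neighbours, resolution 1; endothelial-like cells again at 0.6). Clusters were named from marker lists when at least 3 markers reached 50 CPM and 2-fold over other cells. A cluster with at least 40% of an unrelated class's markers was called mixed. That limit was set after the data were seen, and the report gives the share of each library in the cluster with endothelial and pericyte markers.

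Levels have exact Poisson intervals, shares exact binomial (Clopper-Pearson) intervals and ratios exact conditional binomial intervals, at 95%. The rule of size was tested on simulated counts, which cannot show how far libraries of the same genotype would differ. Members, lists and the rule for named genes were chosen with earlier results of these data known. Slc25a33 and Slc25a36 were named in every class, elsewhere members beyond the size limit, the 6 most abundant in endothelial-like cells, those 3-fold higher in 1 class, and the 8 genes most like Slc25a33. Some items that these rules name are not reported here. The remaining members and genes named were chosen after their values were seen. Alternatives covered scaling (median of ratios; TMM in edgeR 4.0.16), cell filters, doublets, resolution, variable genes, class membership, weights, depth and the measured limit.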

Additional observations from a re-analysis of the deposited data

How the results depend on the processing

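The Slc25a33 log2 ratio in endothelial-like cells, -1.20, lay between -1.48 and -1.13 under median of ratios or TMM scaling, stricter cell filters, kept doublets, resolution 1.5, clustering without Slc25a genes, and thinning. It was -0.47 with the mixed endothelial and pericyte cluster added and -0.66 with equal subcluster weights. It was 0.27 [-0.25, 0.78] at resolution 0.6, from 8.07 CPM in Foxq1iECKO and 6.71 CPM in Foxq1flox/flox. There the barrier and mixed cells formed 1 unnamed cluster, so the class lacked them by construction. That cluster had 42.99 CPM in Foxq1iECKO and 68.9 CPM in Foxq1flox/flox (-0.68), and with it added, an alternative chosen after seeing the data, the ratio was -0.48. The count of members lower by size was 1, and 0 at resolution 0.6 and with the mixed cluster added; the count of higher ones was 0 throughout. The median member lay between -0.04 and 0.03. Scaling moved all ratios by 0.01. For the other 21 members, 195 of 210 values stayed within their counting interval and none reversed.

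Over all genes, 65 were higher and 65 lower by size. The stricter cell filter gave 74 and 117, the added mixed cluster 125 and 18, thinning 98 and 139, equal weights 49 and 35, resolution 0.6 39 and 43, a limit of 5 CPM 126 and 127, of 20 CPM 34 and 40, and no limit 357 and 342. No paired analysis was possible because each genotype has 1 library. With 1 library each, genotype cannot be told apart from embryo, collection or sequencing, and intervals cover counting error only. The number of barrier-type cells sorted into a class and the RNA per cell are both inside a class level. The mixed cluster, which has barrier markers too, held a larger share of Foxq1iECKO than of Foxq1flox/flox cells. Levels near 10 CPM rest on few UMIs in the smaller classes.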
